A study of Rattus norvegicus with 18 samples.

Results

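The voltage-gated calcium and sodium channel subunits are the genes whose rat symbol names a pore-forming alpha subunit (Scn1a to Scn11a, Cacna1a to Cacna1s) or one of the accessory subunits that travel with it (the sodium channel beta subunits, Cacna2d1 to Cacna2d4, Cacnb1 to Cacnb4, Cacng1 to Cacng8). They were chosen by symbol alone, and 40 of the 38445 genes in the files match, of which 36 had enough counts to be tested. The tissue is the ventral tegmental area, the part of the midbrain where the dopamine neurons of the mesolimbic system lie, taken from 18 adult male Sprague-Dawley rats of genotype WT and sequenced as strand-specific mRNA libraries. The 6 chronic ethanol rats (numbered 7 to 12) were fed Lieber-DeCarli liquid diet containing ethanol (9% v/v) over 15 or 16 days, and their tissue was taken at 0 h of withdrawal. The 6 withdrawal rats (13 to 18) had the same ethanol diet, and their tissue was taken 24 h after it was removed. The 6 control rats (1 to 6) had the liquid diet without ethanol. A whole-tissue library mixes neurons of several kinds with glia, so a subunit's level is an average over all of them. Fewer cells of a type and less RNA per cell cannot be told apart in it.

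Voltage-gated sodium channels carry the rising phase of the action potential, and their small beta subunits set where the channel sits and how fast it inactivates. Voltage-gated calcium channels let calcium in when the membrane is depolarised: L-type channels shape pacemaking and calcium signals to the nucleus, P/Q-, N- and R-type channels trigger transmitter release, and T-type channels open near rest and drive burst firing. Dopamine neurons of the midbrain fire as pacemakers and use both families for it, and ethanol is known to inhibit several calcium channels acutely. Levels below are counts per M counted fragments (CPM) after scaling the libraries with TMM factors, and levels of different genes are compared only as CPM per kb of exon.

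The depth was 29.6 to 45.1 M counts per library, at which the limit that a count of 0 allows (3 counts) stood for 0.0665 to 0.104 CPM. The libraries differed in the marker RNA they held, and the cause was not tested. The summed level of 15 dopamine neuron markers lay between 580.7 and 3941 CPM in chronic ethanol rats, between 492.4 and 3342 CPM in withdrawal rats and between 1377 and 4017 CPM in control rats. Withdrawal rat 13 had 16360 CPM of 8 pineal gland markers, against 2.83 to 10.4 CPM in the other 17 rats. Most of this sum was Tph1, at 14980 CPM, while Otx2 and Pde6b of the same list had 0.162 and 0.999 CPM in rat 13. Ethanol rat 8 and control rat 5 had 47.0 and 55.5 CPM of 6 hindbrain patterning genes, against at most 4.57 CPM in the other 16. Withdrawal rat 17 had the lowest dopamine marker sum of all, with Th, which makes the dopamine precursor, at 17.6 CPM, and with Slc6a3, the dopamine transporter, at 2.56 CPM. Not all 15 markers were lowest there: Aldh1a1 had 232.2 CPM in rat 17 and 157.4 CPM in rat 8. Results are therefore given with and without these 4 libraries where they move.

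No subunit passed the test in any comparison of the groups. In each group Scn10a, Scn11a, Cacna1s and Cacng1 had the lowest length-scaled medians. The largest fold changes, those of Cacna1f and Cacna2d4, came from 1 rat.

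**Figure D1:**
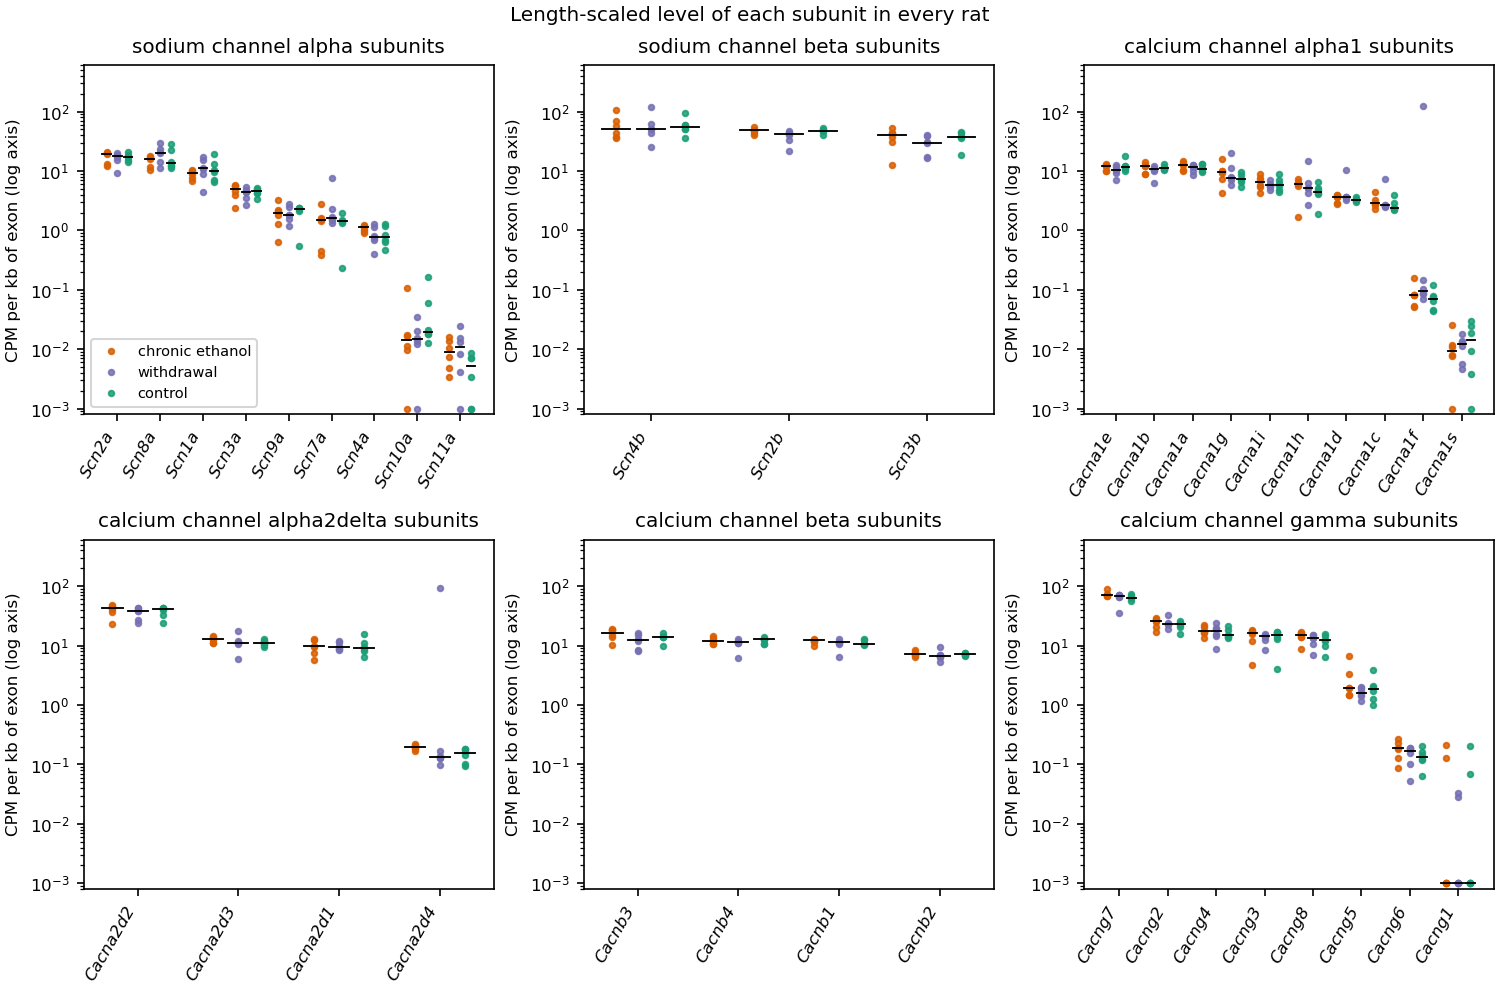
Length-scaled level (CPM per kb of exon, log axis) of 38 of the 40 subunits, by family, with 1 point per rat and a bar at the median of each group of 6; values under 0.001 are drawn at 0.001. Cacng7 and Scn4b stand among the highest, Scn10a, Scn11a, Cacna1s and Cacng1 lie at the bottom, and the single high points of Cacna1f and Cacna2d4 are withdrawal rat 13.

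Among the sodium channel alpha subunits, the brain channels led. Scn2a, the channel of axon initial segments and unmyelinated axons, had 17.6 ± 3.76 CPM per kb in chronic ethanol rats, 16.5 ± 3.88 in withdrawal rats and 17.3 ± 2.43 in control rats (SD, n = 6 each). Scn8a, which carries most of the current at nodes of Ranvier, had 14.8 ± 3.10, 19.8 ± 6.59 and 16.9 ± 7.00 CPM per kb in chronic ethanol, withdrawal and control rats. Scn1a, the main channel of fast-spiking inhibitory neurons, had 8.87 ± 1.43, 11.4 ± 4.64 and 11.0 ± 4.67 CPM per kb in the same order. Scn3a, a channel most abundant before birth, followed with 4.62 ± 1.29, 4.19 ± 0.93 and 4.48 ± 0.70 CPM per kb. The distance between Scn2a and Scn8a was smaller than the SD of either in control rats. Of the summed length-scaled level of these 4 genes, Scn2a made up 38.2 ± 4.97% in chronic ethanol rats, 32.5 ± 5.91% in withdrawal rats and 35.9 ± 5.76% in control rats. The share of Scn8a was 32.3 ± 4.56% in chronic ethanol rats, 37.9 ± 5.22% in withdrawal rats and 33.0 ± 5.24% in control rats.

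The other sodium channel alpha subunits are known best from other tissues and were low here. Scn9a, a channel of pain-sensing neurons that the hypothalamus also uses, averaged 1.87, 1.94 and 2.01 CPM per kb in chronic ethanol, withdrawal and control rats. Scn7a, a relative that responds to extracellular sodium, averaged 1.37, 2.67 and 1.31 CPM per kb, and the withdrawal mean includes rat 13. The skeletal muscle channel Scn4a averaged 1.10, 0.85 and 0.85 CPM per kb. Scn10a and Scn11a, channels of sensory ganglia, stayed at or under 1.16 CPM and 0.173 CPM in every rat and were not tested. Of the listed muscle genes, 5 measured ones summed to 5.95 to 7.54 CPM in chronic ethanol rats, 4.97 to 5.90 CPM in withdrawal rats and 4.39 to 7.89 CPM in control rats.

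Of the sodium channel beta subunits, Scn4b, which is linked to resurgent current, averaged 58.0 ± 26.1, 58.1 ± 31.5 and 58.8 ± 19.3 CPM per kb in chronic ethanol, withdrawal and control rats. Scn2b, which binds the alpha subunit through a disulfide bond, averaged 47.8 ± 5.11, 38.1 ± 9.50 and 47.4 ± 3.76 CPM per kb. Scn3b averaged 36.6 ± 13.8, 28.7 ± 10.2 and 36.4 ± 9.37 CPM per kb.

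Among the calcium channel alpha1 subunits, those of transmitter release had nearly equal levels. Cacna1e (R-type) had 11.6 ± 1.26, 10.2 ± 1.98 and 12.3 ± 2.78 CPM per kb in chronic ethanol, withdrawal and control rats. Cacna1b (N-type) had 11.5 ± 2.20, 10.2 ± 2.06 and 11.4 ± 1.00 CPM per kb. Cacna1a (P/Q-type) had 12.4 ± 1.96, 11.1 ± 1.55 and 11.2 ± 1.54 CPM per kb. These genes differed from each other by less than the SD of Cacna1e in control rats. Of the summed length-scaled level of Cacna1a, Cacna1b and Cacna1e alone, Cacna1a made up 34.8 ± 2.55% in chronic ethanol rats, 35.6 ± 2.48% in withdrawal rats and 32.1 ± 2.97% in control rats.

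The T-type subunits came next. Cacna1g had 9.38 ± 3.73, 9.93 ± 5.28 and 7.44 ± 1.48 CPM per kb in chronic ethanol, withdrawal and control rats, Cacna1i had 6.51 ± 1.67, 5.79 ± 0.77 and 6.14 ± 1.65, and Cacna1h had 5.52 ± 1.99, 6.37 ± 4.21 and 4.42 ± 1.53. Rat 13 was the highest withdrawal rat for Cacna1g and Cacna1h. Without it, Cacna1g averaged 67.24 ± 17.51 CPM and Cacna1h 41.49 ± 11.78 CPM over the other 5 withdrawal rats. The 6 control rats averaged 63.26 ± 12.55 and 38.88 ± 13.44 CPM. The L-type subunits were lower per kb of exon. Their exon models are long, with 18729 bases for Cacna1d and 17849 for Cacna1c, against 6703 to 8794 for the T-type genes. This order therefore depends on how much of each transcript the annotation holds. Cacna1d, whose channel opens at more negative potentials and takes part in dopamine neuron pacemaking, had 3.46 ± 0.52, 4.66 ± 2.84 and 3.29 ± 0.23 CPM per kb. Cacna1c, the other L-type channel of brain and the main one of heart, had 3.05 ± 0.74, 3.39 ± 1.95 and 2.69 ± 0.64 CPM per kb. The large SD of both in withdrawal rats came from rat 13: without it, Cacna1d averaged 65.6 ± 3.07 CPM and Cacna1c 46.3 ± 1.57 CPM over the other 5 rats, against 61.7 ± 4.40 and 47.9 ± 11.5 CPM in the 6 control rats. Cacna1f, the L-type channel of photoreceptors, and Cacna1s, that of skeletal muscle, stood at 0.0717 and 0.0145 CPM per kb in control rats.

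Of the alpha2delta subunits, which raise the number of calcium channels at the surface, Cacna2d2 led with 39.7 ± 9.08 CPM per kb in chronic ethanol rats, 35.7 ± 7.88 in withdrawal rats and 37.6 ± 7.68 in control rats. It made up 63.2 ± 7.68%, 55.3 ± 19.5% and 63.4 ± 6.11% of the family's length-scaled sum in chronic ethanol, withdrawal and control rats. The withdrawal mean includes rat 13, where Cacna2d2 made up 17.8% and Cacna2d4 69.2% of the sum. Cacna2d3 had 12.6 ± 1.45, 11.4 ± 3.67 and 11.2 ± 1.38 CPM per kb, and Cacna2d1, a target of gabapentin as Cacna2d2 is, had 9.68 ± 2.80, 9.93 ± 1.502 and 9.96 ± 3.30. Cacna2d4, the partner of the photoreceptor channel, had 0.194 ± 0.0194 CPM per kb in chronic ethanol rats and 0.146 ± 0.0400 in control rats. In withdrawal rats its median was 0.136 CPM per kb.

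The intracellular calcium channel beta subunits, which mask a retention signal and speed gating, were led per kb by Cacnb3 and had Cacnb2 lowest in control rats. Their exon models ran from 3398 bases (Cacnb3) to 12441 bases (Cacnb4), so this order too depends on the annotation. Cacnb3 had 15.8 ± 3.39, 12.1 ± 3.33 and 13.7 ± 1.99 CPM per kb in chronic ethanol, withdrawal and control rats. Cacnb4 had 12.2 ± 1.53, 10.8 ± 2.39 and 12.2 ± 1.30, Cacnb1 11.9 ± 1.11, 10.7 ± 2.19 and 11.3 ± 1.01, and Cacnb2 7.30 ± 0.71, 6.88 ± 1.34 and 7.12 ± 0.35. Cacnb2 had a coefficient of variation of 12.2% over all 18 rats, the lowest of the 36 tested members.

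The gamma subunits are mostly partners of AMPA-type glutamate receptors. Cacng7 was the most abundant, with 74.2 ± 7.25 CPM per kb in chronic ethanol rats, 63.5 ± 14.0 in withdrawal rats and 65.0 ± 6.00 in control rats. Cacng2 (stargazin), the founding AMPA receptor partner, had 24.3 ± 4.57, 24.1 ± 4.68 and 22.1 ± 3.52 CPM per kb. Cacng4, Cacng3 and Cacng8, also AMPA receptor partners, had 16.2, 13.6 and 11.8 CPM per kb in control rats, over exon models of 984, 948 and 1266 bases so that these levels depend on how much of each transcript the annotation holds. Cacng5 had 2.83 ± 2.04, 1.63 ± 0.31 and 1.98 ± 1.01 CPM per kb in chronic ethanol, withdrawal and control rats. Cacng6 averaged 0.182, 0.144 and 0.136 CPM per kb, and the skeletal muscle subunit Cacng1 had a median of 0 in each group, which allows up to 0.0665 to 0.104 CPM.

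**Figure D2:**
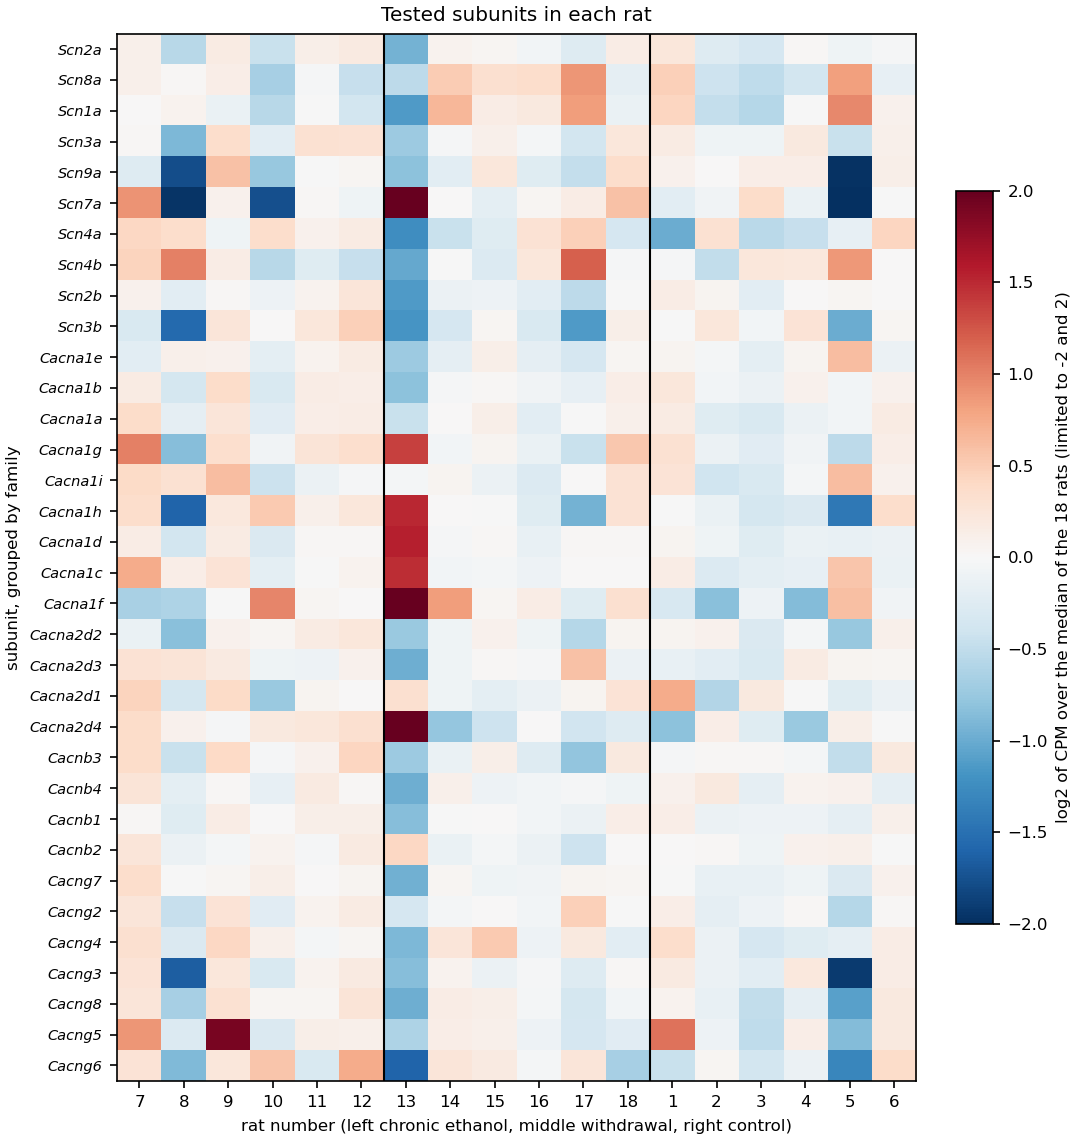
Level of 34 of the 36 tested subunits in each rat as log2 of CPM over that gene's median of the 18 rats, colours limited to -2 and 2, with chronic ethanol rats 7 to 12 at the left, withdrawal rats 13 to 18 in the middle and control rats 1 to 6 at the right. Rat 13 stands apart for Cacna1f and Cacna2d4, at the upper colour limit, and rats 5 and 8 share low values of Cacna1h, Cacng3, Scn7a and Scn9a.

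The first comparison asks how the tissue differed at the end of 15 or 16 days of ethanol feeding. In chronic ethanol against control rats, 30 of the 36 subunits were higher and 6 lower. Of all 17637 genes tested, 8595 were higher and 9042 lower. The subunits had a median log2 change of 0.08 (range -0.31 to 0.52), against a median of -0.0039 over all genes. All were measured in the same rats, so these directions are not independent. edgeR called 0 members at an adjusted p under 0.05, where it called 0% of all genes. At an unadjusted p under 0.05 it found 0 members, against 5.84% of all genes. DESeq2 and limma-voom called 0 members too, where they called 0.261% and 0.0113% of all genes. No member had all 6 ethanol rats above or below every control rat, which 0.522% and 0.408% of genes had. The 95% interval of the change lay within 1 log2 unit either way for 30 of 36 members and within 0.5 for 14.

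The lowest p of this comparison belonged to Cacng7. Its level in CPM ran from 141 through a median of 146.1 to 180.3 in chronic ethanol rats, and from 115.2 through 130.9 to 150.7 in control rats. Of the ethanol rats, 2 lay above every control rat, and the other 4 within the control range. The log2 change was 0.19 ± 0.13 (SE; edgeR adjusted p = 0.968). Cacng8, the gamma subunit of hippocampal AMPA receptors, had 18.2 ± 3.86 CPM in chronic ethanol and 14.9 ± 4.22 CPM in control rats, a log2 change of 0.29 ± 0.22 (adjusted p = 0.986) that was 0.16 without control rat 5. Cacng5 ran from 5.52 through 7.25 to 25.03 CPM in chronic ethanol and from 3.68 through 6.85 to 14.3 CPM in control rats. Its log2 change of 0.52 ± 0.37 (adjusted p = 0.973) was 0.05 without ethanol rat 9, which alone lay above every control rat, and 0.82 without control rat 1.

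Outside the gamma family, Scn4a had 7.87 ± 1.01 CPM in chronic ethanol and 6.07 ± 2.23 CPM in control rats, a log2 change of 0.37 ± 0.26 (edgeR adjusted p = 0.968). Cacna1a had 123.9 ± 19.5 CPM in chronic ethanol and 111.7 ± 15.4 CPM in control rats, a log2 change of 0.15 ± 0.12 (adjusted p = 0.995) that was 0.08 without ethanol rat 7. Without rat 13, 2 of 36 members (Cacna2d4 and Cacng7) had an unadjusted p under 0.05, against 10.7% of all genes. Without all 4 libraries that stand apart, 7 of 36 members (Cacna1c, Cacna1g, Cacna1h, Cacna2d4, Cacnb3, Cacng7 and Cacng8) had an unadjusted p under 0.05, all higher in ethanol rats, against 13% of all genes. Their log2 changes in that fit ran from 0.17 (Cacng7) to 0.49 (Cacna2d4). None was called there, and the lowest adjusted p was 0.285 (Cacna1h, log2 change 0.35).

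**Figure D3:**
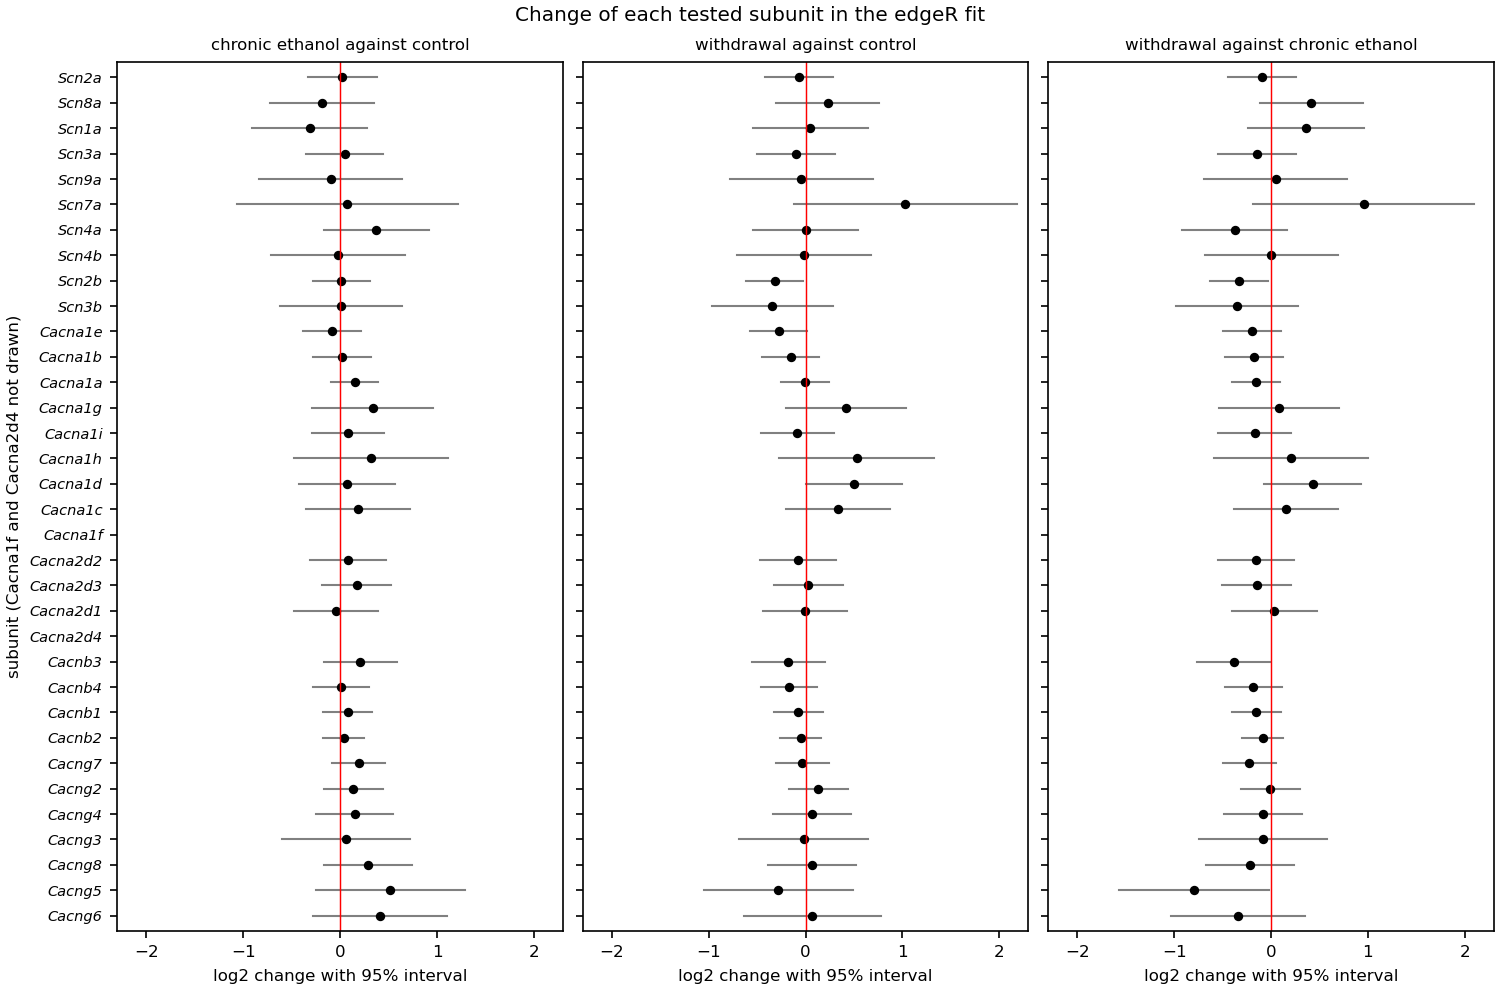
Log2 change with its 95% interval (lines) for 32 of the 36 tested subunits in chronic ethanol against control, withdrawal against control and withdrawal against chronic ethanol, from edgeR; Cacna1f and Cacna2d4, which rest on 1 rat, are not drawn. Nearly all intervals include 0, and no member passed the adjusted test in any panel.

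Withdrawal against control asks about the state 24 h after the last ethanol, and it uses the same control rats as the comparison before. All 6 control rats carry the first index sequence of rats 1 to 8, which no withdrawal rat carries, so that index and group cannot be told apart in this comparison. Of the chronic ethanol rats, 2 carry it and 4 carry that of rats 9 to 16. Here 15 of 36 subunits were higher and 21 lower, with a median log2 change of -0.02. Of all genes, 9472 were higher and 8165 lower, with a median of 0.01. edgeR called 0 members, where it called 0% of all genes. It had 4 members at an unadjusted p under 0.05 (Cacna1f, Cacna2d4, Scn2b and Cacna1d), against 9.82% of all genes. DESeq2 called 0 members, where it called 0.266% of all genes, and gave no p for Cacna1f and Cacna2d4. limma-voom called 0 members and 0% of all genes. No member had all 6 withdrawal rats above or below every control rat, which 0.227% and 0.38% of genes had. The 95% interval lay within 1 log2 unit for 29 members.

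Cacna1f and Cacna2d4, which build the calcium channel of photoreceptor synapses, had the lowest p. Cacna1f ran from 0.4497 through a median of 0.6252 to 800.9 CPM in withdrawal rats and from 0.291 through 0.458 to 0.802 CPM in control rats. Cacna2d4 ran from 0.342 through 0.470 to 328 CPM in withdrawal rats and from 0.332 through 0.537 to 0.640 CPM in control rats. In both genes the highest value is rat 13, and the other 5 withdrawal rats lay between 0.4497 and 0.940 CPM for Cacna1f and between 0.342 and 0.588 CPM for Cacna2d4. The fitted log2 changes of 8.14 ± 1.97 (edgeR adjusted p = 0.302) and 6.75 ± 1.72 (adjusted p = 0.315) became 0.44 and -0.13 without rat 13 (adjusted p = 0.736 and 0.891).

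Scn2b, the disulfide-linked sodium channel beta subunit, ran from 98.1 through 192.2 to 215.3 CPM in withdrawal rats and from 187.4 through 219.4 to 240.5 CPM in control rats. Of the withdrawal rats, 3 lay below every control rat and 3 within the control range. The log2 change was -0.32 ± 0.14 (edgeR adjusted p = 0.487). Without rat 13 it was -0.20 (edgeR adjusted p = 0.563), and Scn2b was the only member at an unadjusted p under 0.05, against 8.6% of all genes. Without all 4 libraries it was -0.12, and Cacna1f was then the only member at an unadjusted p under 0.05 (log2 change 0.76, edgeR adjusted p = 0.588), against 7.72% of all genes. Cacna1d had a log2 change of 0.50 ± 0.24 (edgeR adjusted p = 0.507), with 195.7 CPM in rat 13 and values of 60.3 to 67.4 CPM for the 5 withdrawal rats left, against 56.0 to 69.4 CPM in control rats. Without rat 13 the change was 0.09. Cacna1e had 176.8 ± 34.4 CPM in withdrawal and 214.5 ± 48.4 CPM in control rats, a log2 change of -0.28 ± 0.14 (adjusted p = 0.528) that was -0.15 without control rat 5 and -0.01 without all 4 libraries.

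Withdrawal against chronic ethanol sets 24 h after the ethanol diet against its end, and it shares its rats with both comparisons above. Of the 36 subunits, 12 were higher and 24 lower in withdrawal rats, with a median log2 change of -0.12. Of all genes, 9402 were higher and 8235 lower, with a median of 0.02. edgeR called 0 members and 0% of all genes. At an unadjusted p under 0.05 it had 5 members (Cacna1f, Cacna2d4, Scn2b, Cacng5 and Cacnb3), against 15.3% of all genes. DESeq2 called 0 members, where it called 1.71% of all genes, and limma-voom called 0 members and 0% of all genes. No member had all 6 withdrawal rats above or below every ethanol rat, which 0.811% and 0.544% of genes had. In the test for any difference among the groups, 2 members (Cacna1f and Cacna2d4) had an unadjusted p under 0.05, against 11.5% of all genes, and 0 were called by edgeR, DESeq2 or limma-voom, which called 0%, 1.69% and 0.0113% of all genes.

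Scn2b again ran from 98.1 through 192.2 to 215.3 CPM in withdrawal rats, against 187 through 223.5 to 254.3 CPM in chronic ethanol rats. Of the withdrawal rats, 3 lay below every ethanol rat, and the log2 change of -0.33 ± 0.14 (edgeR adjusted p = 0.293) was -0.21 without rat 13. Cacnb3, the beta subunit of many neuronal N-type channels, ran from 27.5 through 41.9 to 54.8 CPM in withdrawal and from 35.1 through 56.1 to 64.6 CPM in chronic ethanol rats. Its groups overlapped, with 2 withdrawal rats (13 and 17) below every ethanol rat. The log2 change was -0.38 ± 0.18 (adjusted p = 0.318), and -0.30 without rat 17. Cacng5 had 6.05 ± 1.15 CPM in withdrawal and 10.5 ± 7.55 CPM in chronic ethanol rats, a log2 change of -0.80 ± 0.37 (adjusted p = 0.316) that was -0.33 without ethanol rat 9.

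Cacna1f and Cacna2d4 had log2 changes of 7.94 ± 1.94 (edgeR adjusted p = 0.115) and 6.35 ± 1.67 (adjusted p = 0.129) in withdrawal against chronic ethanol rats. Without rat 13 they were 0.22 and -0.53 (adjusted p = 0.799 and 0.243). In that fit 5 members (Cacna2d4, Cacnb2, Scn1a, Scn2b and Scn8a) had an unadjusted p under 0.05, against 13.9% of all genes, and none was called. Without all 4 libraries 5 members (Cacna2d4, Cacnb2, Cacnb3, Scn1a and Scn2b) did, against 13.1% of all genes, and again none was called. Without rat 13 alone, Scn8a had a log2 change of 0.54 and Scn1a of 0.53 (adjusted p = 0.332 and 0.336). With all 18 rats Scn8a ran from 71.9 through 130.9 to 191.6 CPM in withdrawal rats and from 65.5 through 103.5 to 113 CPM in chronic ethanol rats. Scn1a ran from 38.9 through 96.1 to 151.9 CPM in withdrawal rats and from 58.4 through 81.8 to 90.2 CPM in chronic ethanol rats. In both genes 4 withdrawal rats lay above every ethanol rat, and rat 13 lay within or below the ethanol range.

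The genes that anchor, traffic or regulate these channels were described in the same way. Of 43 listed partners and regulators 42 were tested, and edgeR called 0 in each comparison, where it called 0% of all genes. At an unadjusted p under 0.05 there were 2 in chronic ethanol against control, against 5.84% of all genes. There were 3 in withdrawal against control, against 9.82%, and 2 in withdrawal against chronic ethanol, against 15.3%. The partners had median log2 changes of 0.04, -0.01 and -0.05. Nalf1, which serves the sodium leak channel Nalcn, had 79.7 ± 9.47 CPM in chronic ethanol and 70.1 ± 4.98 CPM in control rats, a log2 change of 0.19 ± 0.08 (edgeR adjusted p = 0.835). In withdrawal against chronic ethanol rats it averaged 69.5 ± 4.65 against 79.7 ± 9.47 CPM, a log2 change of -0.20 ± 0.08 (adjusted p = 0.255). Cbarp, an inhibitor of calcium channel surface expression, had 270.7 ± 62.1 CPM in chronic ethanol and 207.8 ± 35.6 CPM in control rats (log2 change 0.38 ± 0.16, adjusted p = 0.837). Ncs1, a calcium sensor, had 125 ± 10.4 and 110.1 ± 4.45 CPM (0.18 ± 0.12, adjusted p = 0.968).

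In withdrawal against control the partners with the lowest p were high in rat 13. Gem, a small GTPase that blocks calcium channels, had 69.2 CPM in rat 13 and 3.66 to 10.9 CPM in the other 17 rats. Cabp1, a calmodulin relative that slows L-type inactivation, had 333.7 CPM in rat 13 against 40.3 to 100.7 CPM in the others. Ryr1, an intracellular calcium release channel, had 48.3 CPM against 1.51 to 12.0 CPM. Their log2 changes were 1.56 ± 0.64, 0.94 ± 0.39 and 1.38 ± 0.62 (edgeR adjusted p = 0.463, 0.466 and 0.490). Without rat 13 they were -0.16, 0.21 and 0.26 (adjusted p = 0.867, 0.807 and 0.899). In withdrawal against chronic ethanol, Sptbn4, the spectrin that holds sodium channels at nodes, had 199.5 ± 29.4 CPM in withdrawal and 231.6 ± 23.9 CPM in chronic ethanol rats (-0.22 ± 0.10, edgeR adjusted p = 0.323), and Cabp1 had a log2 change of 0.79 ± 0.39 (adjusted p = 0.343). Without rat 13 the changes were -0.13 for Sptbn4 and 0.054 for Cabp1 (edgeR adjusted p = 0.453 and 0.937).

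Rat 13 was the highest of all rats for some members and the lowest for others. Beside the pineal markers Tph1 (14980 CPM) and Crx (445.4 CPM), it had the highest values of 8 members. Cacna1f stood at 800.9 CPM against at most 1.04 in any other rat, and Cacna2d4 at 328 CPM against at most 0.754. Cacna1d had 195.7 CPM (next 74.2), Cacna1c 131.6 (79.2), Cacna1g 170.3 (133.2) and Cacna1h 128.5 (65.1). Scn7a had 52.5 CPM (next 19.4) and Cacnb2 73.5 (65.5). Cacna1f made up 87.3% of the length-scaled L-type sum in rat 13, against 0.613 to 2.95% in chronic ethanol rats and 0.786 to 1.71% in control rats. Cacna2d4 made up 69.2% of the alpha2delta sum there, against 0.241 to 0.404% in chronic ethanol rats and 0.140 to 0.414% in control rats. The same rat was lowest for 15 members, among them Scn2b, Scn1a, Scn2a, Cacnb4 and Cacng7, each of them at 0.453 to 0.510 of the median of the other rats. Ethanol rat 9 was highest for 7 members and ethanol rat 12 for 5, so the count of highest values does not by itself set rat 13 apart. How often rat 13 was highest or lowest over all genes was not counted, so these counts cannot be read as particular to the subunits.

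**Figure D4:**
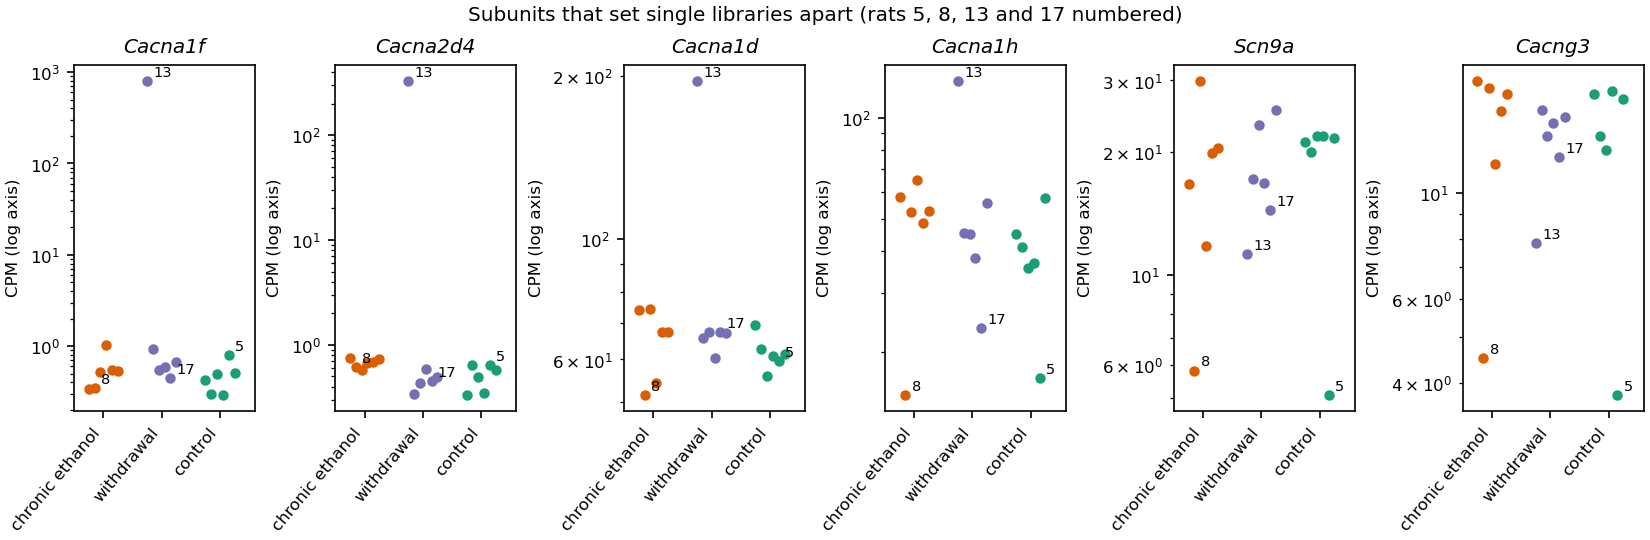
CPM (log axis) of 6 subunits in every rat, with chronic ethanol left, withdrawal in the middle and control right, and rats 5, 8, 13 and 17 numbered. Rat 13 stands apart for Cacna1f, Cacna2d4, Cacna1d and Cacna1h, and rats 8 and 5 are lowest for Cacna1h, Scn9a and Cacng3.

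Cacna1f, Cacna2d2 and Scn4b are shown with their promoter sequence, Cacna1f because rat 13 alone had it above 1.04 CPM, Cacna2d2 because it followed the dopamine markers and Scn4b because it had one of the most negative relations to them, both described below. The 300 bases run from 250 before to 50 after the annotated start in RefSeq, build GRCr8, on the gene's strand: chrX:17568259-17568558 (minus) for Cacna1f, chr8:116950856-116951155 (plus) for Cacna2d2 and chr8:54343623-54343922 (plus) for Scn4b. Capitals mark TAATCC or TAATCT, the core that photoreceptor and pineal homeobox factors such as Crx bind, and GGGCGG, the GC box, each on either strand, with no overlap between them.
Cacna1f: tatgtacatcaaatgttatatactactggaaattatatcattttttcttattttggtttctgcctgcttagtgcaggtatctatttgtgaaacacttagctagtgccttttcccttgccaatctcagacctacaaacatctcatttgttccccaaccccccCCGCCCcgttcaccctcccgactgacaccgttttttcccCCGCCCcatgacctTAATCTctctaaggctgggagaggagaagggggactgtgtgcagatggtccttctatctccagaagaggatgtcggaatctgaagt
Cacna2d2: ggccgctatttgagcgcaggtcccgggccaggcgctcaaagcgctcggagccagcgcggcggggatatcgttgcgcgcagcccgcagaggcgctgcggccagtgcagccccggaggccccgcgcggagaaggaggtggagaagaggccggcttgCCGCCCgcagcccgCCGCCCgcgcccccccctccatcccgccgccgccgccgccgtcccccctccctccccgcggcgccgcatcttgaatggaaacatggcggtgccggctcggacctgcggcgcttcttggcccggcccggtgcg
Scn4b: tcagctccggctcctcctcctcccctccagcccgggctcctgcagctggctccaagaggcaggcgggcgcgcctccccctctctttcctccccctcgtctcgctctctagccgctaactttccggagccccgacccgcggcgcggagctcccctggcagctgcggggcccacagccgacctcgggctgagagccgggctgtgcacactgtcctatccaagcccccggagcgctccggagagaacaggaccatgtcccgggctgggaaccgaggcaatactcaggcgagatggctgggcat
The Cacna1f promoter held TAATCT once and the GC box at 2 places, the Cacna2d2 promoter held the GC box at 2 places, and the Scn4b promoter held neither. TAATCC or TAATCT stood in 15.2% of all 33469 promoters in the table and in 3 of the 30 promoters found for 27 members (Cacna1f, Cacna1s and Scn11a). GGGCGG stood in 33.1% of all promoters and in 16 of the 30. The 3 promoters printed had a GC content of 46% (Cacna1f), 77% (Cacna2d2) and 70% (Scn4b), against a median of 62.3% over the members' promoters and 51.7% over all.

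Rats 5 and 8, the control and the ethanol rat with hindbrain genes, were low together for some members. Both lay below the other 16 rats for 7 of the 36 tested members: Cacna1g, Cacna1h, Cacna2d2, Cacng2, Cacng3, Scn7a and Scn9a. The share of all genes that did so was not counted, so this number cannot be read as particular to the subunits. Ethanol rat 8 and control rat 5 had 14.9 and 16.7 CPM of Cacna1h, against 23.6 to 128.5 CPM in the others. They had 4.51 and 3.77 CPM of Cacng3, against 7.86 to 17.1 CPM, and 5.82 and 5.07 CPM of Scn9a, against 11.2 to 29.9 CPM. Rat 17, the withdrawal rat lowest in dopamine markers, was highest for Scn4b (502.8 CPM), Scn8a (191.6 CPM), Cacng2 (100.5 CPM), Cacna2d3 (72.3 CPM) and Scn4a (9.37 CPM), and lowest for Cacnb3 (27.5 CPM) and Cacnb2 (41.5 CPM).

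Since the libraries held such different levels of the dopamine neuron markers, each subunit was set against the mean log2 CPM of these 15 genes over the 18 rats. Scn3b and Cacna2d2 followed the markers. Scn3b had a Spearman rho of 0.82 (permutation p = 9e-05, adjusted over 17622 genes p = 0.0109) and a Pearson r of 0.86 (permutation p = 5e-05), and without rats 17 and 8, the farthest from the median, rho was 0.76 and r 0.87. Cacna2d2 had a rho of 0.81 (permutation p = 0.00013, adjusted p = 0.0136) and an r of 0.78 (permutation p = 0.00034), and without those 2 rats rho was 0.74 and r 0.80. These were 2 of 36 members called, both higher with the markers, a direction called for 1.49% of all genes, while 0.596% were called lower. The median rho was 0.15 over the members and -0.03 over all genes.

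**Figure D5:**
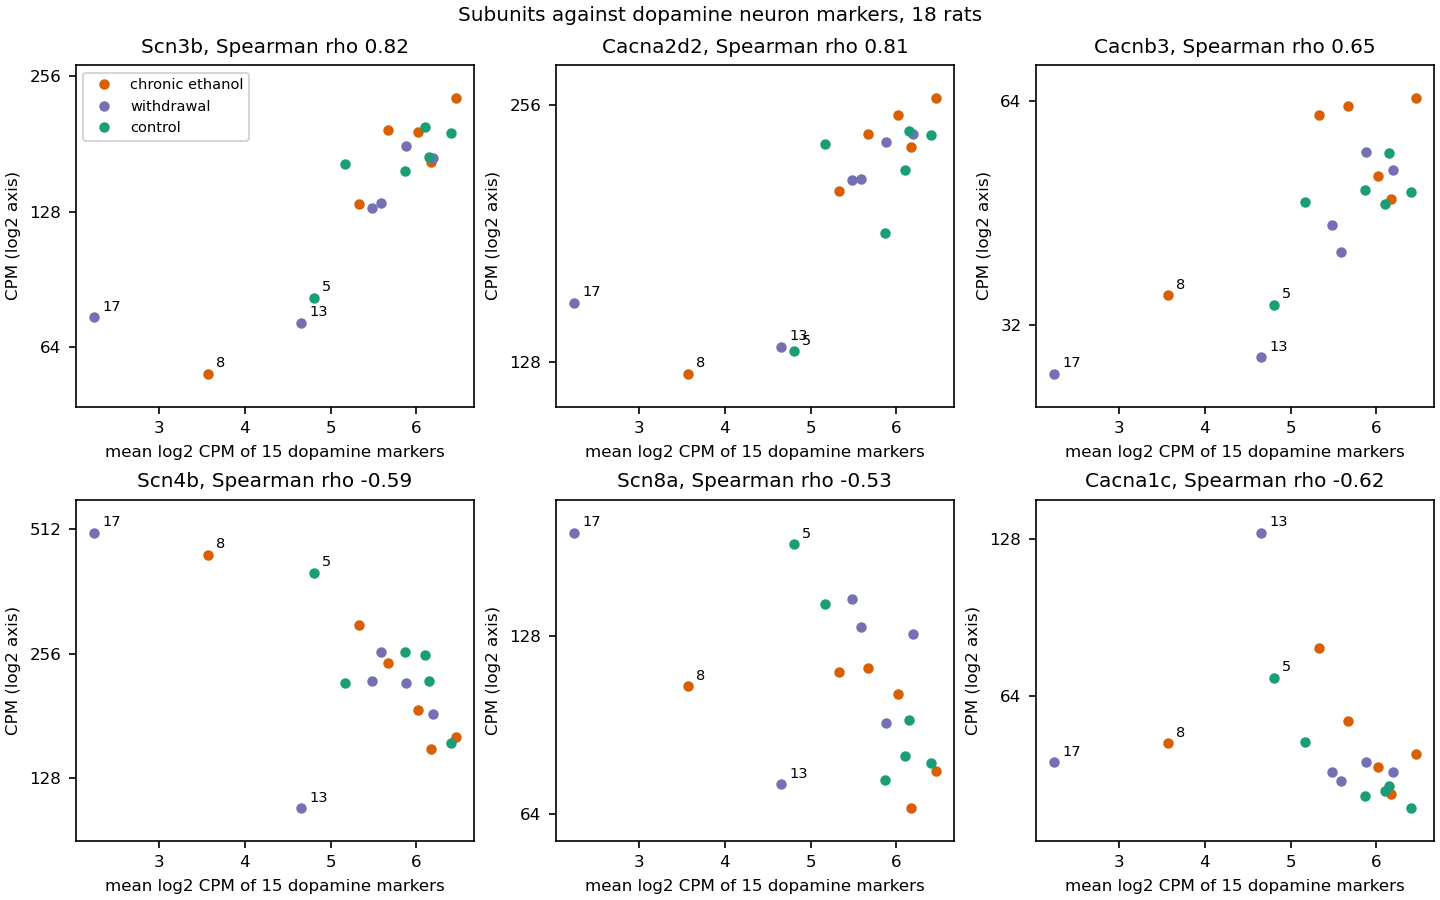
CPM (log2 axis) of 6 subunits against the mean log2 CPM of 15 dopamine neuron markers, 1 point per rat, coloured by group, with rats 5, 8, 13 and 17 numbered. Scn3b and Cacna2d2 rise with the markers, and the 4 numbered rats hold their lowest values; Cacnb3 has the same direction without being called, and Scn4b, Scn8a and Cacna1c have a negative rho.

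The relation was weaker without the 4 libraries that stand apart. Without them rho was 0.64 for Scn3b and 0.62 for Cacna2d2 over 14 rats (adjusted permutation p = 0.431 and 0.452), 0 members were called and 0.25% of all genes were. The libraries were also made with different first index sequences, which rats 1 to 8, 9 to 16 and 17 to 18 share. Among the 8 rats of the first set rho was 0.86 for Scn3b and 0.81 for Cacna2d2 (permutation p = 0.0107 and 0.0214). Among the 8 rats of the second it was 0.79 and 0.88 (permutation p = 0.0275 and 0.00708). Within either set 0 of 36 members were called after adjustment over all genes, and 0% of all genes were, so the count says nothing about the members in particular, and the third set held 2 rats and gave no value. After centring each group on its mean, rho was 0.86 for Scn3b and 0.82 for Cacna2d2.

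In CPM, Scn3b ran from 55.9 through 178.5 to 228.4 in chronic ethanol rats, from 72.5 through 132.1 to 179 in withdrawal rats and from 82.4 through 166.4 to 197.7 in control rats. Its lowest values were rats 8, 13, 17 and 5. Cacna2d2 ran from 124 through 232.9 to 261 CPM in chronic ethanol rats, from 133.4 through 209.5 to 236.8 CPM in withdrawal rats and from 131.7 through 223 to 239 CPM in control rats. The groups overlapped over nearly the whole range in both genes, and the same 4 rats were lowest. Summed GABA neuron markers were lowest in these rats too. They came to 331.5 CPM in rat 5, 407.7 in rat 8, 460.2 in rat 13 and 679.3 in rat 17. The other 14 rats had 702.3 to 1407 CPM, though Slc32a1 alone had 196.7 CPM in rat 17 and 126.7 CPM in rat 3. A relation of the subunits to GABA markers was not tested, so the one above cannot be read as particular to dopamine neurons. Members with a positive rho numbered 25 and those with a negative one 11, where 46.2% of all genes had a positive rho. Other positive ones were Cacnb3 (rho 0.65, adjusted permutation p = 0.103) and Scn9a (0.54, 0.240). The most negative ones were Cacna1c (-0.62, adjusted permutation p = 0.141), Scn4b (-0.59, 0.171), Scn8a and Cacna1i (both -0.53, 0.267).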

How the data were processed

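The values are counts of fragments per gene that the authors made with featureCounts 1.5.0 and STAR 2.5.2a on Rnor_6.0, per the file headers and the submitters' processing notes. The headers also give reverse-strand counting of read pairs, and pairs matching several genes or places were left out, so reads shared by near-identical copies are missing. Libraries were stranded mRNA with RNA integrity numbers above 8, per the labels' protocols. The log2 changes, CPM and tests here were computed from these counts as deposited.

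Symbols came from a RefSeq table of GRCr8, matched on gene ID, and all 40 members were found. Genes were kept with filterByExpr (17637 of 38445) and tested with edgeR 4.0.16 in R 4.3.3: quasi-likelihood F-test, TMM factors, all 18 rats in 1 fit, two-sided, Benjamini-Hochberg adjusted over all genes tested, called under 0.05. The SE was calculated back as the size of the change over the square root of F, and edgeR's common biological coefficient of variation came to 0.270. DESeq2 1.42.0 and limma-voom (limma 3.58.1) were alternatives. The 4 members that the filter left out are Cacna1s, Cacng1, Scn10a and Scn11a. CPM per kb divides CPM by the exon length in the files, so the order of genes by it depends on that annotation. Relations to the dopamine markers used Spearman's rho with 100000 resamples (scipy 1.17.1), two-sided, and p-values were adjusted over all 17622 genes other than the markers and not over the subunits as first planned. Scripts were tested on simulated data. No pair of libraries agreed within sampling noise (smallest chi-square per degree of freedom 13.5). The 95% intervals of log2 changes include the spread between rats, while the 3-count floor covers counting error only, since reads had no molecular identifiers.

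The members and gene lists were chosen with earlier results of these data known. Named in each comparison are called members and the 5 with the lowest p, and of the partner list the 3 with the lowest p. Subunits named from a fit without some rats, and those that set single rats apart, were picked after their values were seen. Alternatives were other scaling, filters, robust fitting, the 2 compared groups alone, terms for the first index or the dopamine marker mean, fits without each single rat, and rats 5, 8, 13 and 17 left out together. Leaving out rats 5 and 8 alone, and partner changes without rat 13, were added after seeing the data. Protein sequences were not used here, and 2 of the tested members are counted but not reported singly.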

Additional observations from a re-analysis of the deposited data

Results flagged for a closer look

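Of 102 groups of 6 values (34 subunits in 3 groups of rats), 19 held 1 rat whose distance to the nearest other rat, as a share of the group's range, passed Dixon's 95% critical value for 6 values. Chance gives this in about 1 in 20 groups of independent, normally distributed values. The groups here hold the same rats for every subunit, and the rate over all genes was not counted. Rat 13 of the withdrawal group made up 9 of the 19. It was high for Cacna1f (800.9 CPM, next withdrawal rat 0.940), Cacna2d4 (328.2, next 0.588), Cacna1d (195.7, next 67.4), Cacna1c (131.6, next 47.9), Cacna1h (128.5, next 55.5) and Scn7a (52.48, next 15.6). It was low for Cacng7 (72.4 CPM, next 133), Cacnb4 (75.62, next 139) and Cacnb1 (34.18, next 56.5). The summed pineal markers were 16360 CPM here, against a maximum of 10.4 CPM among the other rats, and their part in these values was not tested.

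Control rat 5 was high for Cacna1e (309.7 CPM, next control rat 209.6), and low for Scn3b (82.44, next 157.7), Scn9a (5.07, next 20) and Cacng3 (3.773, next 12.3). Ethanol rat 8 was low for Cacna1h (14.89 CPM, next ethanol rat 48.5) and Cacng8 (10.97, next 17.8). These are the 2 rats with hindbrain patterning genes, at 47.0 CPM in ethanol rat 8 and 55.5 CPM in control rat 5, whose part in these values was not tested.

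The other 4 values belonged to 4 rats. Ethanol rat 9 was high for Cacng5 (25.03 CPM, next 12.4), ethanol rat 7 for Cacng7 (180.3, next 152.7), ethanol rat 10 for Cacna1f (1.037, next 0.543) and withdrawal rat 17 for Cacng2 (100.5, next 72.5).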

How the results depend on the processing

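In each comparison of the groups, and in the test for any difference, 0 subunits were called under every alternative that was run: up to 30 settings each, 119 in all, among them terms for the first index and for the dopamine marker mean, fits without each single rat or without rats 5 and 8, and an adjusted p under 0.1. DESeq2 gave no p for Cacna1f and Cacna2d4. Of 15 fitted log2 changes named, 427 refits kept the direction and 4 turned it, all of Cacna2d4. In withdrawal against control its change was -0.13 without withdrawal rat 13 and -0.053 without rats 5, 8, 13 and 17, and over the fits that left out 1 rat it ran from -0.13 to 6.98. In withdrawal against chronic ethanol it was -0.53 without rat 13 and -0.55 without the 4 rats, and ran from -0.53 to 6.59. Since the other 5 withdrawal rats had at most 0.588 CPM, these values rest on rat 13.

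The number of subunits called against the dopamine markers was 2 with RLE size factors, after centring on the group mean and at an adjusted p under 0.1. It was 4 with Pearson's r (Cacna2d2, Cacnb3 and Scn3b among them), 1 after centring on the first index mean over rats 1 to 16 (Scn3b), and 0 within rats 1 to 8, within rats 9 to 16 or without rats 5, 8, 13 and 17. Over fits that left out 1 rat it ran from 2 to 3, with Cacnb3 added without ethanol rat 7 and Scn4b without withdrawal rat 13. The sets of 8 rats, and the 14 rats left without the 4, are also smaller, and the cause of the lower counts was not tested.

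Each group held 6 rats, and the median SE over the subunits was 0.226 (log2) in chronic ethanol against control, which limits the size of change that passes the test. The intervals of Cacna1f, Cacna1h, Cacna2d4, Cacng5 and Scn7a reached beyond 1 log2 unit in all 3 comparisons. Withdrawal and control rats share no first index, so the fit with that term joins them only through the chronic ethanol rats. No paired analysis was possible because the animals are numbered without repeats across the groups.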
